A study of Mus musculus with 4 samples.

Results

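The enzymes that assemble triglyceride were followed as 10 genes, from the first acylation of glycerol 3-phosphate to the loading of lipid onto lipoprotein. They are Gpam, Agpat2, Agpat3, Lpin1, Lpin2, Lpin3, Mogat1, Dgat1, Dgat2 and Mttp, chosen by name, and every probe that carries one of these names on the array was taken. This gave 14 of 55681 probes, and all 10 genes were among the 24637 genes and named features that could be tested. The cells were primary hepatocytes, the parenchymal cells of the liver, from mice of the strain labelled bl6. One group of 2 samples was given 1 µM GW3965, which activates the oxysterol-sensing nuclear receptors LXR alpha and LXR beta, and the other group of 2 samples was given DMSO, its solvent. Both groups were cultured in 10% fetal bovine serum and then held overnight in 0.5% serum with 5 µM simvastatin, which blocks mevalonate synthesis, and 100 µM mevalonic acid, which refills the pathway below the block. DMSO cells are thus a control under statin and mevalonate, not untreated hepatocytes. The treated samples carry the label LXR against GW3965, read here as the agonist that the series description names. The labels do not say whether replicates a and b of a group are separate mice or separate wells, so p-values measure only the spread between these samples.

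Hepatocytes build triglyceride on a glycerol 3-phosphate backbone. GPAM adds the first fatty acid, AGPAT enzymes add another to give phosphatidate, lipins remove the phosphate to give diacylglycerol, and DGAT enzymes add the last fatty acid. MOGAT1 reaches diacylglycerol by another route, from monoacylglycerol. The product is stored in lipid droplets or moved by the microsomal triglyceride transfer protein, encoded by Mttp, onto apolipoprotein B for secretion in very low density lipoprotein (VLDL). LXR agonists are known to raise liver triglyceride in mice, in large part through the transcription factor SREBP-1c, encoded by Srebf1.

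With GW3965, 7 of the 10 genes had a higher mean than with DMSO and 3 a lower one, where 48.5% of all genes had a higher mean. The 4 with the highest differences were Mogat1 (1.70-fold), Lpin1 (1.57-fold), Gpam (1.36-fold) and Lpin3 (1.33-fold). Their order depended on the processing: with normexp background correction Lpin1 (0.59 on the log2 scale) and Lpin3 (0.42) stood above Mogat1 (0.35) and Gpam (0.27). Among the 10, Agpat2 and Agpat3 of the phosphatidate step and the diacylglycerol acyltransferase Dgat2 stayed within 0.10 of 0 on the log2 scale. Mttp had the lowest difference, -0.22. The median log2 difference of the 10 genes was 0.23, beside -0.0061 for all genes tested, and it turned to -0.022 without GW3965 replicate a. By limma, a linear model with moderated variance, 0 of the 10 genes passed at an adjusted p under 0.05, as did 0 of 24637 overall (0%), and the adjusted p of each of the 10 was 1.00. At an unadjusted p under 0.05 stood 1 of the 10, Lpin1, which was higher, against 0.645% of all genes in that direction and 0.824% (203 genes) in either. With arrays centred on their median, Lpin1 was no longer under 0.05 (limma, unadjusted p = 0.066). A gene that did not pass is not shown to be unchanged.

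The GW3965 arrays were both above the DMSO arrays in 3 of the 10 genes, where 9.41% of all genes did so. These were Lpin1, Lpin3 and Mogat1. In 1, Mttp, both lay below, where 6.55% of all genes did so, and in the other 6 the arrays overlapped. All values below are log2 signals relative to the upper quartile of the same array, so that levels can be set side by side between arrays for a gene, but not between genes. The scanner software called all 10 genes well above background on all 4 arrays.

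**Figure D1:**
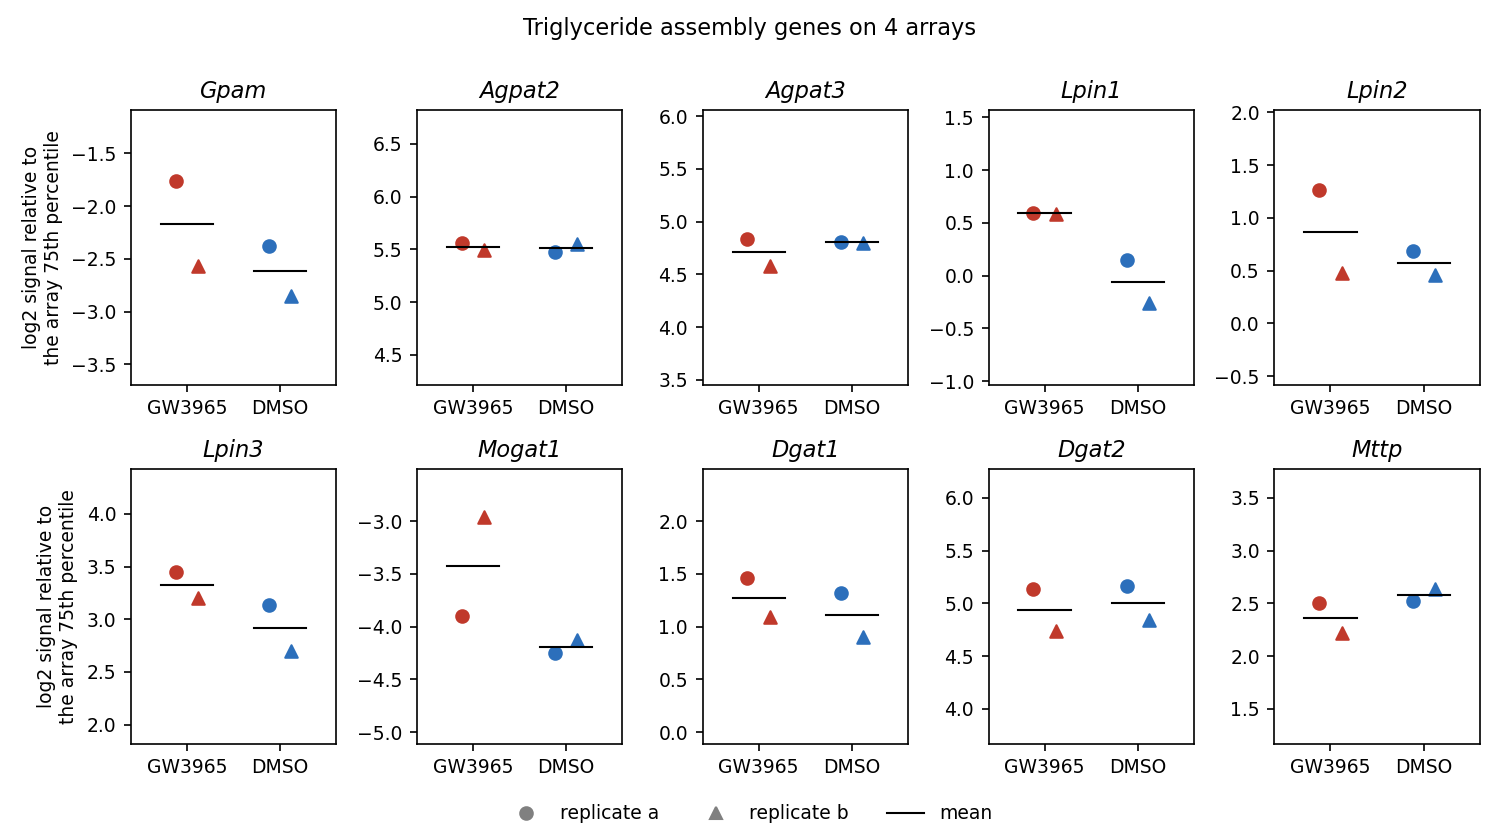
Level of each of the 10 genes on the 4 arrays, as log2 signal relative to the array's upper quartile (75th percentile), on axes of equal span, with circles for replicate a, triangles for replicate b and a line at the mean of 2 arrays. Lpin1, Lpin3 and Mogat1 show both GW3965 points above both DMSO points, and Mttp both below.

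Glycerol 3-phosphate acylation was represented by Gpam, the mitochondrial acyltransferase that commits fatty acid to glycerolipids. Gpam stood at -1.76 and -2.57 on GW3965 replicates a and b, against -2.38 and -2.85 on DMSO replicates a and b. GW3965 replicate a was the highest array, while GW3965 replicate b lay below DMSO replicate a, so the groups overlapped. The log2 difference was 0.45 ± 0.35 (SE), with a 95% interval of -0.48 to 1.37. It was 0.044 without GW3965 replicate a, 0.85 without GW3965 replicate b and 0.27 with normexp background correction. A further Gpam probe, 1015 bases away, gave -2.45 and -3.08 with GW3965, against -2.95 and -3.20 with DMSO, a difference of 0.31 ± 0.29 (SE) when each probe was fitted alone. The order of the 4 arrays was the same for both Gpam probes. On the mm9 build of the files the Gpam probe used lies at chr19:55143274-55143333 and the other at chr19:55144289-55144348, and the signals of both Gpam probes were dim, at 5.49 to 14.8 times the lowest signal called well above background on the same array.

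Phosphatidate formation was covered by Agpat2 and Agpat3, which acylate lysophosphatidate. Agpat2, the gene whose human counterpart is lost in a congenital lipodystrophy, stood at 5.56 and 5.49 on GW3965 replicates a and b, against 5.47 and 5.55 on DMSO replicates a and b. All 4 values lay within 0.081, the narrowest span of the 10 genes. The Agpat2 difference was 0.010 ± 0.18 (SE), with an interval of -0.47 to 0.49, and its sign turned with arrays centred on their median, with normexp background correction, without GW3965 replicate a and without DMSO replicate a (values from -0.040 to -0.0051). The other Agpat2 probe, 497 bases away, gave 0.080 ± 0.19 (SE). Agpat3 stood at 4.84 and 4.58 with GW3965, against 4.80 and 4.80 with DMSO, so that GW3965 replicate b alone was set apart. Its difference was -0.096 ± 0.20 (SE), with an interval of -0.62 to 0.42, and it was 0.035 without GW3965 replicate b. The probes are at mm9 chr2:26448610-26448669 and chr10:77736356-77736415.

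The lipins are phosphatidate phosphatases, and lipin 1 is also known as a nuclear coactivator. Lpin1 stood at 0.593 and 0.588 on GW3965 replicates a and b, against 0.148 and -0.26 on DMSO replicates a and b. The GW3965 arrays were nearly equal and both were above the higher DMSO array. The Lpin1 difference was 0.65 ± 0.22 (SE), a 1.57-fold higher signal with a 95% interval of 1.04-fold to 2.35-fold (limma, unadjusted p = 0.036, adjusted p = 1.00). With an array left out in turn it ran from 0.44 without DMSO replicate b to 0.85 without DMSO replicate a. Of all differences, that of Lpin1 was at the 98.8 percentile mark. It was the 1 gene of the 10 whose difference exceeded the gap between replicates in both groups, which held for 9.41% of all genes.

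Lpin3 was measured by 1 probe and stood at 3.45 and 3.20 on GW3965 replicates a and b, against 3.13 and 2.70 on DMSO replicates a and b. The lower GW3965 array was only slightly above the higher DMSO array. The difference was 0.41 ± 0.24 (SE), with an interval of -0.22 to 1.04, and 0.20 without DMSO replicate b. Lpin2 stood at 1.26 and 0.47 on GW3965 replicates a and b, against 0.69 and 0.46 on DMSO replicates a and b. GW3965 replicate a was above the other 3 arrays, and the other GW3965 array lay between the DMSO arrays. The Lpin2 difference was 0.30 ± 0.32 (SE), with an interval of -0.55 to 1.14, and it turned to -0.097 without GW3965 replicate a.

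The 2 Lpin2 probes, 15368 bases apart on mm9 chromosome 17, carry different transcript accessions, and their opening 30 of 60 bases are shown because their gaps between replicates differed.
Lpin2 probe used, A_66_P138976, mm9 chr17:71596935-71596994: agcagaagaacaaatgcacagttcatgtct
Lpin2 other probe, A_55_P2072872, mm9 chr17:71581567-71581626: ccaggcacacagccatatatcaggcaaaac
The other Lpin2 probe stood at 0.30 and -2.33 on GW3965 replicates a and b, against 0.25 and -2.63 on DMSO replicates a and b. Replicate a was thus 6.19-fold above replicate b with GW3965 and 7.35-fold above it with DMSO, while the difference between the groups was 0.17 ± 1.3 (SE). Of 35479 probes that passed the filter, 24 (0.0676%), this one included, were as far or further down on replicate b in both groups, a comparison chosen after the gap was seen. The gap between replicates was measured, and its source was not tested.

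Lpin1 also had a pair of probes, 1180 bases apart, and their opening 30 bases are given because 1 of them was left out.
Lpin1 probe used, A_55_P2083481, mm9 chr12:16543695-16543754: aggtctcatgtggtccacatagttcacagg
Lpin1 other probe, A_55_P2083474, mm9 chr12:16542515-16542574: attatccatgaatgaggcctaatgacagtg
The other Lpin1 probe gave intensities of 8.80 and 21.1 on GW3965 replicates a and b, against 14.7 and 24.7 on DMSO replicates a and b. Relative to the upper quartile it was lower with GW3965 at both letters, at -5.86 against -5.21 for a and -5.00 against -4.61 for b. The probe used was higher with GW3965 at both letters. The other probe was not well above background on replicate a of either group and did not pass the filter, so its difference was not tested. The Lpin1 result therefore rests on 1 probe, whose intensities were 768 and 1012 with GW3965, against 603 and 505 with DMSO.

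**Figure D2:**
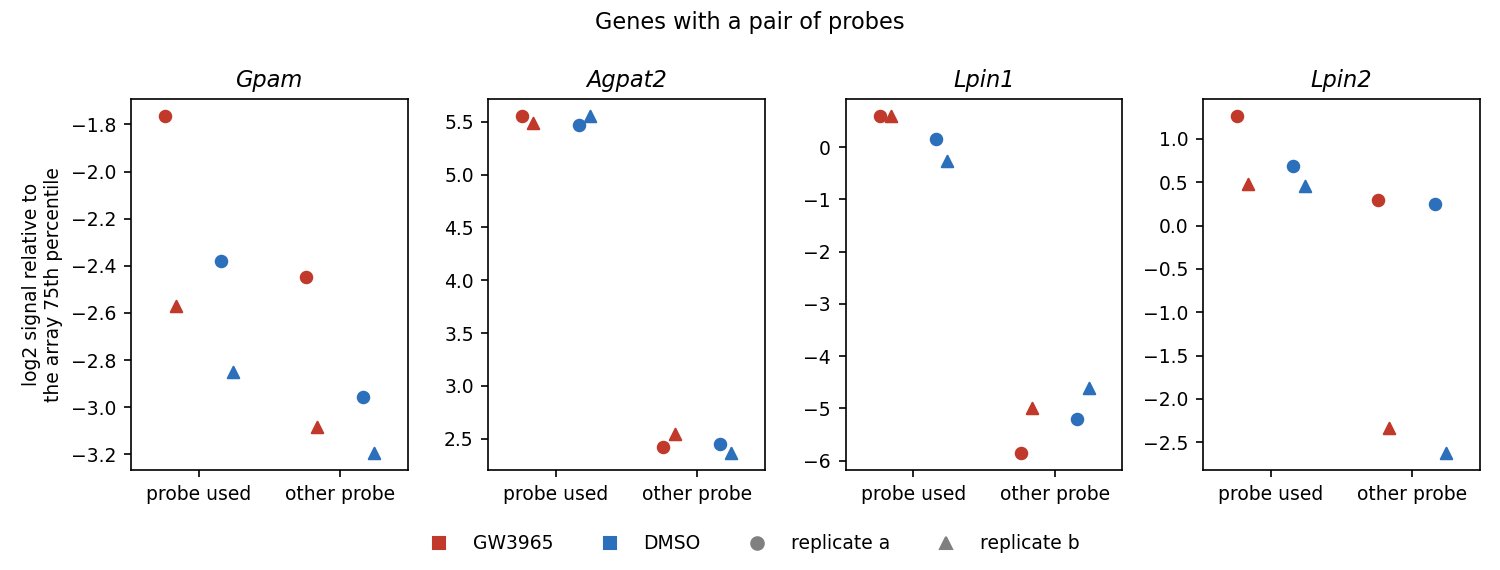
Log2 signal relative to the array's 75th percentile for the 4 genes with a pair of probes, with GW3965 in red, DMSO in blue, circles for replicate a and triangles for replicate b. The other Lpin2 probe has replicate b minus replicate a at -2.63 with GW3965 and -2.88 with DMSO, and the other Lpin1 probe did not pass the filter.

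Mogat1, the monoacylglycerol acyltransferase, is scarce in normal mouse liver and known to be raised in fatty liver of mice. It stood at -3.90 and -2.96 on GW3965 replicates a and b, against -4.25 and -4.13 on DMSO replicates a and b. Both GW3965 arrays were above both DMSO arrays, and GW3965 replicate b was far above the other 3. The Mogat1 difference was 0.76 ± 0.36 (SE), with an interval of -0.17 to 1.69, at the 99.1 percentile mark of all differences (limma, unadjusted p = 0.088, adjusted p = 1.00). Without GW3965 replicate b it was 0.29, without GW3965 replicate a 1.23, and with normexp background correction 0.35. The probe, at mm9 chr1:78534677-78534736, read intensities of 34.3 and 86.6 with GW3965, against 28.6 and 34.6 with DMSO. These were 2.49 to 8.20 times the lowest signal called well above background, the nearest to background of the 10 genes.

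The last acylation is made by Dgat1 and Dgat2, which encode unrelated enzymes of the same reaction. Dgat1 stood at 1.46 and 1.09 on GW3965 replicates a and b, against 1.32 and 0.90 on DMSO replicates a and b. Dgat2 stood at 5.13 and 4.74 on GW3965 replicates a and b, against 5.16 and 4.85 on DMSO replicates a and b. In both genes replicate b was below replicate a in each group, by 0.32 to 0.42, and the groups overlapped. The difference was 0.16 ± 0.26 (SE) for Dgat1, with an interval of -0.51 to 0.83, and -0.069 ± 0.24 (SE) for Dgat2, with an interval of -0.71 to 0.57. The Dgat1 difference was -0.023 without GW3965 replicate a and -0.049 without DMSO replicate b, and that of Dgat2 was 0.13 without GW3965 replicate b and 0.090 without DMSO replicate a. The Dgat2 probe is at mm9 chr7:106302215-106302274. The Dgat1 probe matches mm9 chr15:76333128-76333274, a stretch of 147 bases for a probe of 60, so it is split in the genome.

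Mttp encodes the large subunit of the protein that lipidates apolipoprotein B. It stood at 2.51 and 2.21 on GW3965 replicates a and b, against 2.52 and 2.64 on DMSO replicates a and b. Both GW3965 arrays were below both DMSO arrays, but GW3965 replicate a was lower than DMSO replicate a by a margin far smaller than the spread of either group. The Mttp difference was -0.22 ± 0.21 (SE), a ratio of 0.860 with an interval of 0.591 to 1.25. With each array left out in turn it kept its sign, being -0.36 when GW3965 replicate a was omitted and -0.072 when GW3965 replicate b was omitted. The probe is at mm9 chr3:137753868-137753927.

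**Figure D3:**
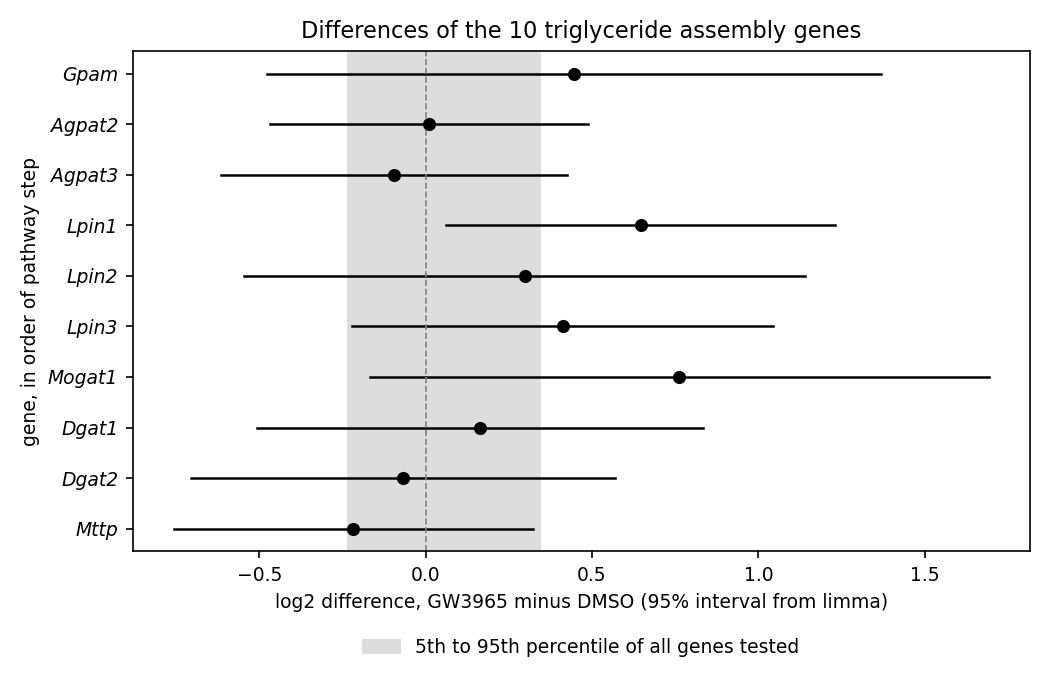
Log2 difference of GW3965 minus DMSO for the 10 genes in order of pathway step, as points with 95% intervals from limma, over a grey band from the 5th to the 95th percentile of all genes tested (-0.23 to 0.34). The interval of Lpin1 (0.062 to 1.23) lies above 0 and those of the other 9 include it.

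Replicates differed in a shared way. In 7 of the 10 genes replicate b was below replicate a in both groups, where 31.8% of all genes were. Among these 7, the gap was near 0 for Lpin1 with GW3965 (-0.0049) and for Agpat3 with DMSO (-0.0023). In 8 of 10 the gap had the same sign in both groups, where 75.1% of all genes did. The log2 of the summed signal of hepatocyte markers (10 of 10 measured) was also lower on replicate b, at 11.9 and 11.1 on GW3965 replicates a and b, against 11.8 and 11.3 on DMSO replicates a and b. Their median difference between the groups was -0.030, and 0 of them had an unadjusted p under 0.05. Albumin, Alb, stood at 9.62 and 9.10 on GW3965 replicates a and b, against 9.45 and 9.35 on DMSO replicates a and b. In bulk RNA, fewer cells of a type and less RNA per cell cannot be told apart.

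Markers of other cells were summed in the same way. Macrophage markers (8 of 8 measured) stood at 6.80 and 5.85 with GW3965, against 6.66 and 5.67 with DMSO. Stellate cell and fibroblast markers (6 of 7) stood at 6.35 and 5.41 with GW3965, against 6.27 and 5.49 with DMSO, and endothelial markers (5 of 5) at 5.07 and 5.38 with GW3965, against 5.00 and 5.27 with DMSO. Single markers did not all follow these sums. Dcn, the brightest of the stellate cell and fibroblast list, was lower on replicate b in both groups, while Col1a1, Col1a2, Col3a1 and Des were higher on it. Of the endothelial list, Kdr was lower on replicate b in both groups, while Pecam1, Cdh5 and Stab2 were higher on it. Cholangiocyte markers (3 of 4) stood at 1.79 and 3.17 with GW3965, against 1.78 and 2.96 with DMSO, where Krt19 and Epcam were higher and Sox9 lower on replicate b in both groups. Adipocyte markers (4 of 5) stood at -2.19 and -2.60 with GW3965, against -2.41 and -2.56 with DMSO, and the adiponectin gene Adipoq, the stellate marker Lrat and the cholangiocyte marker Krt7 did not pass the filter. Apart from the adipocyte list, the gap between replicates in either group was larger in these sums than the gap between GW3965 and DMSO at the same letter, and their part in the values of the 10 genes was not tested.

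Known LXR targets were read on the same arrays. Abca1, a cholesterol efflux transporter, stood at 3.31 and 3.85 on GW3965 replicates a and b, against 1.46 and 0.55 on DMSO replicates a and b. Abcg1, a further sterol transporter, stood at 2.89 and 3.42 with GW3965, against 1.42 and 0.95 with DMSO. Srebf1 stood at 0.37 and 0.43 on GW3965 replicates a and b, against -0.96 and -0.72 on DMSO replicates a and b. In all 3 the GW3965 arrays were far above the DMSO arrays, with differences of 2.58 ± 0.39, 1.98 ± 0.29 and 1.24 ± 0.20 (SE) in the order given, each at an unadjusted p under 0.05 by limma, and 0 of the 3 passed over all genes. Whether Srebf1 differed more than any of the 10 genes was not tested.

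The rest of the pathway was read from 4 further lists. Of 11 other acyltransferases and genes of glycerol phosphate supply, all measured, 0 passed in either direction, 0 had an unadjusted p under 0.05, and 1 had a higher mean and 10 a lower one, with a median of -0.065. They ran from -0.29 for Mogat2, which encodes an intestinal relative of MOGAT1, to 0.14 for Gpat2. Mogat2 stood at 0.95 and 0.60 on GW3965 replicates a and b, against 1.25 and 0.88 on DMSO replicates a and b. Gpat4, the microsomal enzyme of the GPAM reaction, differed by -0.087 ± 0.23 (SE), and Gpat3 by -0.11 ± 0.53 (SE). The test of Gpam against them was not made.

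Of 11 genes at the branches to phospholipids, 10 were measured, 0 passed, 6 had a higher mean and 4 a lower one, with a median of 0.0095. The smallest p-values belonged to Crls1, the cardiolipin synthase (-0.17 ± 0.19, SE), and Pcyt2, which makes CDP-ethanolamine (0.16 ± 0.25, SE). Of 11 genes that act with Mttp in VLDL assembly and secretion, all were measured, 0 passed, 6 had a higher mean and 5 a lower one, with a median of 0.0043. Apob, the protein that Mttp loads, differed by 0.043 ± 0.27 (SE), and the cargo receptor gene Surf4 by -0.17 ± 0.22 (SE) and the coat GTPase gene Sar1b by -0.11 ± 0.19 (SE). Of 11 regulators, all measured, 0 passed over all genes, 1 (Srebf1) was higher at an unadjusted p under 0.05 and 10 were not past it. Their median was 0.00066. Foxo1, which encodes a transcription factor restrained by insulin signalling, stood at 2.07 and 2.26 on GW3965 replicates a and b, against 1.67 and 1.90 on DMSO replicates a and b. Both its GW3965 arrays were above both DMSO arrays, with a difference of 0.38 ± 0.20 (SE). The differences were -0.21 ± 0.18 (SE) for Mlxipl, which encodes ChREBP, 0.060 ± 0.18 (SE) for Pparg and 0.00066 ± 0.47 (SE) for Nr1h3, which encodes LXR alpha.

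**Figure D4:**
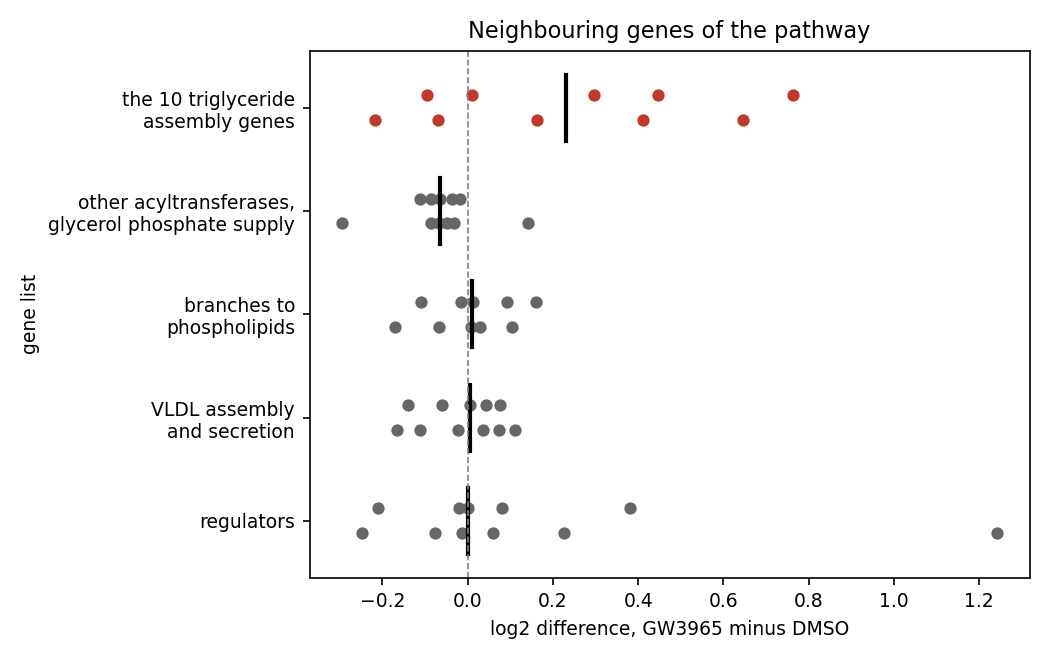
Log2 difference of GW3965 minus DMSO for the 10 triglyceride assembly genes (red) and 4 neighbouring lists (grey), each point a gene and each bar the median of its list. The 10 genes have a median of 0.23, and the medians of the other lists run from -0.065 to 0.0095. Single genes of those lists run from -0.29 (Mogat2) to 1.24 (Srebf1).

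Sequence upstream of the start sites was read from RefSeq windows on the GRCm38 build, 250 bases before to 50 after each start, which held 12 windows for 8 of the 10 genes. Dgat1 and Dgat2 were not matched. The search covered both strands for the LXR element of direct repeats, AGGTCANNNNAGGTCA, its half-site AGGTCA, which is part of the full element, the sterol regulatory element TCACNCCAC, the E-box CACGTG and the NF-Y box CCAAT. The full LXR element and the sterol regulatory element were in 0 of the 12 windows, and in 0.0152% and 1.24% of all 32851 windows. The half-site was in 2 windows, 1 of Gpam and that of Lpin1, against 16.3% of all windows. The E-box was in 2, of Lpin2 and Lpin3, against 7.15%, and the NF-Y box in 3, of Gpam, Lpin2 and Mogat1, against 37.4%. A match is only a run of letters, and its absence says only that these letters are not in this window.

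The stretches before the start sites of the 3 genes with the highest differences as scaled here are shown, since these are the ones a reader would first set against the motifs. Capitals mark a motif that was found.
Mogat1, GRCm38 chr1:78510810-78511059, plus strand: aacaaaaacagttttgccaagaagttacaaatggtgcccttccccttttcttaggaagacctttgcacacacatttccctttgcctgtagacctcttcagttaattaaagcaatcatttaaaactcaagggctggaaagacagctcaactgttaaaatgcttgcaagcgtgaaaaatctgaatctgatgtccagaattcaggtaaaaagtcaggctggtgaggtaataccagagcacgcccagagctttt
Lpin1, GRCm38 chr12:16610967-16611216, minus strand: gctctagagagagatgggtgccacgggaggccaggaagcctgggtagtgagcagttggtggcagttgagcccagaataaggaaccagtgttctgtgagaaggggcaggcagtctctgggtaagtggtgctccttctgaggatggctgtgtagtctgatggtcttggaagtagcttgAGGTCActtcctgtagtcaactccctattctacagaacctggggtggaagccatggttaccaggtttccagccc
Gpam outer start, GRCm38 chr19:55127239-55127488, minus strand: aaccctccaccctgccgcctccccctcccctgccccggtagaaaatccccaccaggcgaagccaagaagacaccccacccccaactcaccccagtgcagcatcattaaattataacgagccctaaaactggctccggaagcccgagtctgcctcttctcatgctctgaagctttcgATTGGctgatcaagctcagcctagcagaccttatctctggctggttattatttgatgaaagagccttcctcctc
Gpam inner start, GRCm38 chr19:55099478-55099727, minus strand: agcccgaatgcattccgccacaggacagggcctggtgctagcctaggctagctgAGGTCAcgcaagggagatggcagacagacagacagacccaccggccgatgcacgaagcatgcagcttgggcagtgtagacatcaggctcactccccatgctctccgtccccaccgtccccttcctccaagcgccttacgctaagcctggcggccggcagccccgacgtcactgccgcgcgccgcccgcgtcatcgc
The capitals in Lpin1 and at the inner Gpam start are the half-site, from -74 to -69 and from -196 to -191 relative to the start, and those at the outer Gpam start are the NF-Y box on the opposite strand, from -74 to -70. The Mogat1 stretch holds none, since its NF-Y box lies 25 to 29 bases after the start.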

How the data were processed

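RNA was labelled with Cy3 and hybridised to 4 Agilent arrays of design 028005, read in 1 colour, with an array for each sample and all on 1 slide. Per the file headers, the deposited values are the linear signal intensity of each spot, corrected for background and spatial trends by Agilent Feature Extraction 10.7.3.1 and not scaled between arrays (the submitters' processing notes name 11.5.1.11). The authors' own table of values repeats that intensity (largest difference 0). Flags for signal well above background, saturation and outliers also come from these files, per the file headers. Probes well above background made up 62.5% to 69.1% of 55681, and 0 spots were saturated.

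Outlier spots were left out (83 to 141 per array), log2 intensities were averaged over the spots of a probe, and the 75th percentile of each array subtracted. A probe was kept where both arrays of either group read it well above background (35479 probes), and the brightest probe of a name stood for it. RefSeq accessions named 26762 probes and the others kept the name in the files. Differences of GW3965 minus DMSO were tested with limma 3.58.1 in R 4.3.3 (figures with matplotlib 3.10.9), two-sided and without a block. The fit had 2.72 prior and 2 residual degrees of freedom, with Benjamini-Hochberg adjustment over 24637 genes. On data simulated with the spread of these replicates, it called 0 of 67 genes with a log2 change of 1. It called 4 of 67 at a log2 change of 2 and 38 of 66 at a change of 4, with 2 false calls. Where no change had been put in, 5.81% had an unadjusted p under 0.05 by limma, against 0.824% of all genes on the real arrays. Whether these call rates hold for the real arrays was not tested. A permutation of 2 arrays against 2 cannot go below p = 0.333. The number of arrays limits the precision. Named from the other lists were genes with an unadjusted p under 0.05 or else those with the smallest p, with a few added after their values were seen (Gpat3, Gpat4, Apob, Foxo1, Mlxipl, Pparg, Nr1h3). The genes and lists were chosen with earlier results of these data known. Alternatives concerned scaling, background correction, filter, probe choice, variance model, threshold, replicate block and each array left out.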

Additional observations from a re-analysis of the deposited data

How the results depend on the processing

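Under the alternatives, 0 genes passed at an adjusted p under 0.05, except for 15 with the replicate letter as a block and 0 to 1 with an array left out, the 1 without DMSO replicate b. The letters are not known to mark a shared mouse or day. Deviations of replicate a from its group mean correlated at 0.72 across genes between the groups. With the replicate block 0 of the 10 genes passed (smallest adjusted p 0.582 by limma). At an unadjusted p under 0.05 in that fit, 4 were higher (Lpin1, Mogat1, Lpin3 and Gpam) and 0 lower. Counting either direction, 5.41% of all genes were under 0.05 with the block. For Lpin1 the unadjusted p by limma was 0.066 with arrays centred on their median. It was under 0.05 with the other settings that kept all arrays, the largest being 0.048 with no filter. Under no alternative was a gene of the 10 past the threshold. Among probes that passed the filter, Gpam, Lpin1, Lpin3, Mogat1 and Mttp kept their sign throughout. With normexp background correction Gpam was 0.27 and Mogat1 0.35, both below Lpin3 at 0.42. Agpat2 was -0.040 with arrays centred on their median and -0.0051 with normexp background correction. With an array left out, Agpat2 ran from -0.028 to 0.049, Agpat3 from -0.23 to 0.035, Dgat1 from -0.049 to 0.37, Dgat2 from -0.27 to 0.13 and Lpin2 from -0.097 to 0.69. The median of the 10 genes had its lowest value, -0.022, when GW3965 replicate a was omitted and its highest, 0.39, when DMSO replicate a was, and ran from 0.17 to 0.23 under the other settings. Both GW3965 arrays were above both DMSO arrays in 2 to 4 genes under the other scalings, filters and probe choices. The count was 2 with arrays centred on their median, where 36.1% of all genes had a higher mean. It was 4 with quantile normalization and with the mean of a gene's probes. The 9.41% of all genes without overlap in this direction belongs only to the settings as reported, so these counts have no all-gene share beside them. The all-gene count at an unadjusted p under 0.05 ran from 56 with normexp to 1333 with the block, with 203 as reported and 536 with no filter. Where an array was left out, the lone array of its group was assumed to vary like the other group. Signals near background limit Mogat1 and Gpam, and the cause of these shifts was not tested.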
